A study of Rattus norvegicus with 2 samples.

Results

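The genes described here are the receptors and ligands of the VEGF and angiopoietin systems: the VEGF receptors Kdr, Flt1 and Flt4, the angiopoietin receptor Tek and its partner Tie1, the ligands Vegfa, Vegfb and Vegfc, and the ligands Angpt1 and Angpt2. They were chosen by gene symbol from the array annotation, and all 10 were on the arrays, with 16 probes (7 for the 5 receptors and 9 for the 5 ligands) among 40012 probes in all and 20417 probes with a gene name, which gave 15611 genes. RNA of uncultured, untreated rat lung cells (2 samples, replicates 1 and 2, Cy3) was hybridised on two-colour Agilent arrays against mix1 (Cy5), a single control RNA made from cultured bone marrow cells and primary ear fibroblasts of the rat, both kept in medium with fetal bovine serum. The labels give no strain, age or sex, and they do not say whether the lung samples came from separate animals, so each p-value rests on a spread between samples that may be technical alone. Mix1 held cultured cells and lung held uncultured ones, so tissue of origin and culture cannot be told apart.

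VEGF ligands are secreted dimers that bind receptor tyrosine kinases on endothelial cells and drive the growth, survival and permeability of vessels. Kdr is the main signalling receptor for VEGF-A, Flt1 binds VEGF-A and VEGF-B and also exists as a soluble decoy, and Flt4 binds VEGF-C and VEGF-D and is best known from lymphatic vessels. In the angiopoietin system, Angpt1 from cells around the vessel activates the endothelial receptor Tek (also called Tie2) and stabilises vessels, Angpt2 is stored and released by endothelial cells and often opposes Angpt1, and Tie1 is a related receptor that works together with Tek. In the mouse lung, alveolar epithelium is a known source of Vegfa.

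All values are log2 ratios of lung over mix1, so 1 unit is a 2-fold difference and a positive value is higher in lung. That direction is likely and was not stated outright: it rests on how the series describes its values and on 6 lung epithelial genes, whose median was 5.66 in replicate 1 and 5.62 in replicate 2, and which are no finding for that reason. Each ratio says how lung compares with mix1 for its own gene and carries no level, so a gene near 0 may be high in both RNAs or low in both. No array had the dyes swapped, and a dye effect cannot be told apart from the difference between the RNAs. The number of arrays limits the precision of every value.

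The receptors were all higher in lung, whereas the ligands were divided. All 5 receptors passed limma's moderated test as higher in lung (Benjamini-Hochberg adjusted p under 0.05), and of the 5 ligands 2 were higher (Vegfa and Angpt2), 2 were lower (Vegfb and Vegfc) and 1 (Angpt1) did not pass. Together 7 of the 10 genes were higher, against 32.9% of the 15611 genes tested, and 2 were lower, against 49.7%. Because 82.7% of all genes passed in one direction or the other, size separates genes better here than passing does. In both arrays, 9 of the 10 genes differed by 2-fold or more, against 32.3% of all genes. When limma's treat tested against a 2-fold change, 8 of the 10 passed, against 25.8%. The median receptor had a log2 ratio of 2.32 in replicate 1 and 2.22 in replicate 2, and the median ligand 0.03 and 0.01. Over all genes the medians were -0.19 and -0.26. In these bulk RNAs, more cells of a type and more RNA per cell cannot be told apart.

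**Figure D1:**
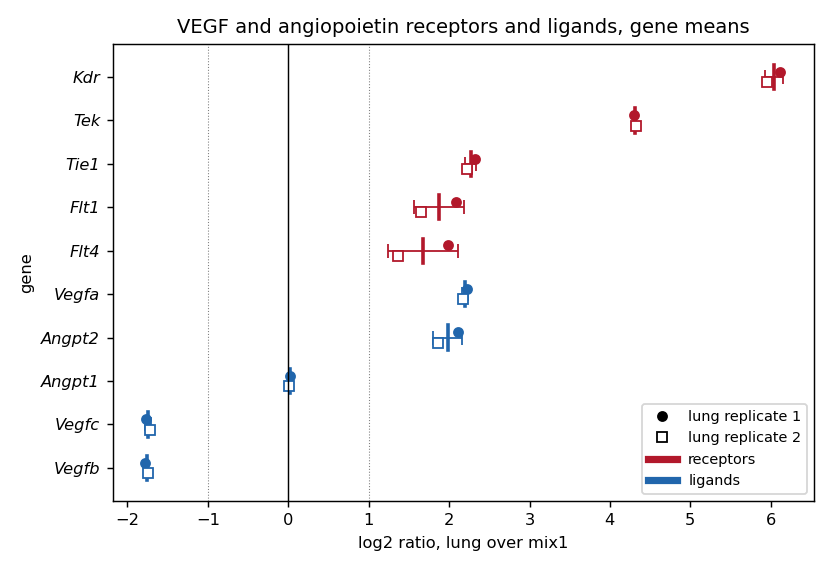
The log2 ratio of lung over mix1 is plotted on the x axis for each gene on the y axis, receptors (red) above ligands (blue). Filled circles are replicate 1, open squares replicate 2, the vertical bar is the mean and the whiskers are the SD of the 2 arrays. Dotted lines mark 2-fold. All 5 receptors lie to the right of the 2-fold line, led by Kdr at a mean of 6.04, and the ligands run from Vegfb at -1.76 to Vegfa at 2.20, each gene placed by the mean of its probes.

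**Figure D2:**
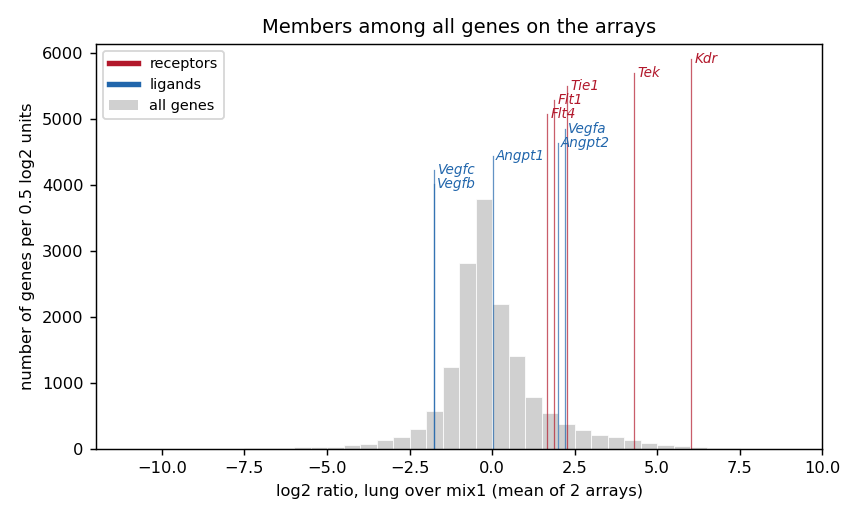
The grey bars give the number of genes (y axis) in each 0.5-unit step of the log2 ratio of lung over mix1 (x axis, mean of 2 arrays) for all 15611 genes, and the coloured lines mark the receptors (red) and ligands (blue). Kdr and Tek lie in the right tail, Vegfa, Angpt2 and the other 3 receptors on its shoulder, and Vegfb and Vegfc on the left.

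Promoter sequences of receptors are shown because these genes were higher together and because ETS factors, a family that includes the endothelial factor Erg, are known to drive endothelial receptor genes. The RefSeq promoter table (build GRCr8, 250 bases before to 50 bases after the start site) held 7 of the 10 genes, 4 receptors and 3 ligands. Tek, Angpt1 and Angpt2 were not in it. Each sequence runs 5′ to 3′ on the gene's strand. Capitals mark the words CGGAAG or AGGAAG on either strand, which cannot match at the same site. Both words hold the ETS core GGAA, and GGAA in other surroundings is not marked.
Kdr, chr14:32571813-32572112, plus strand: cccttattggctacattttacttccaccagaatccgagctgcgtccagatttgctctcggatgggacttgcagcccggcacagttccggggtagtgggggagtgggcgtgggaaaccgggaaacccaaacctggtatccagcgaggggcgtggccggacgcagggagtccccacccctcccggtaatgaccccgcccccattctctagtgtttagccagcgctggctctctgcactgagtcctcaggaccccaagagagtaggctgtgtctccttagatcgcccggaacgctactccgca
Flt1, chr12:12333180-12333479, plus strand: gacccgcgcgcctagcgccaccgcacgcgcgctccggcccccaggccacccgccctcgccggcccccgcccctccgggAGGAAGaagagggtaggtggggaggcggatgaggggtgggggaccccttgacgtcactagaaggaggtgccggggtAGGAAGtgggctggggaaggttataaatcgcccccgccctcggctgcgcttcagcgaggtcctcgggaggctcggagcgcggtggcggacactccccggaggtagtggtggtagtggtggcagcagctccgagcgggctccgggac
Flt4, chr10:34414584-34414883, plus strand: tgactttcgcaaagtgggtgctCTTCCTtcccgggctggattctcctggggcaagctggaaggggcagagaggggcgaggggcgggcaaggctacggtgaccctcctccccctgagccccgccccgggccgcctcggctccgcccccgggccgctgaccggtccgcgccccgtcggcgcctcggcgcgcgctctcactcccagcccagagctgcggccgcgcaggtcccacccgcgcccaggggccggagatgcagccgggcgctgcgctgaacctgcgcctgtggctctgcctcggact
Tie1, chr5:137304932-137305231, minus strand: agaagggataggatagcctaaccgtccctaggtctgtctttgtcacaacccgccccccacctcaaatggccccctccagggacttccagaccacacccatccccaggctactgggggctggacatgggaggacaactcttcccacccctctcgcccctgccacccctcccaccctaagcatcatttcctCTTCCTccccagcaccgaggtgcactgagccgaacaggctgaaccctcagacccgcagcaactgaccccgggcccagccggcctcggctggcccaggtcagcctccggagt
CGGAAG or AGGAAG was found 2 times in the Flt1 window, at positions -172 and -96 from the start site. A match was found 1 time each in the windows of Flt4 (-228) and Tie1 (-61), and not in that of Kdr. None was found in the windows of the ligands Vegfa (2 start sites), Vegfb and Vegfc. GGAA outside these words was not counted in any window, and the Kdr window does hold GGAA. Of all 33469 windows of this length, 45.5% held at least 1 of these words. The GC box GGGCGG, the word bound by SP1, was present on either strand in all 4 receptor windows, in the windows of Vegfb and Vegfc and at 1 of the 2 Vegfa start sites, against 33.1% of all windows. The windows of the 7 genes had 57.3% to 75.0% GC, against a median of 51.7% over all windows. The shares over all windows were not matched for GC content. The word TATAAA occurred only in the Flt1 window among those of these 7 genes, against 14.2% of all windows. The word ACGTG, a form of the hypoxia response core, was in none of them, against 19.3% of all windows. Other forms of that core, such as GCGTG, were not searched. The GATA word AGATAA was found only at 1 Vegfa start site, against 11.6%. These matches describe letters in a window and not binding. Whether ETS factors have a part in the ratios of these genes was not tested.

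Kdr had the highest ratio of the receptors. It stood at 6.11 in replicate 1 and 5.96 in replicate 2, a mean of 6.04 ± 0.11 (SD, n = 2) or 65.6-fold (limma adjusted p 0.00117), and 99.7% of all genes had a lower ratio. The arrays differed by 0.16, small beside the mean, but the gene rests on 1 probe. The genes nearest to Kdr over the 2 arrays were Pon3, a serum paraoxonase family member, at a Euclidean distance of 0.05, Arap2 at 0.09 and the surfactant protein gene Sftpa1 at 0.11. In all, 47 genes lay within 0.5 units of it.

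Tek followed with 4.30 in replicate 1 and 4.32 in replicate 2, a mean of 4.31 ± 0.02 (SD, n = 2) or 19.9-fold (limma adjusted p 0.00117). Its 2 probes lay at 3.79 and 4.84, so both place Tek well above the 2-fold line. Tie1 stood at 2.32 in replicate 1 and 2.22 in replicate 2, a mean of 2.27 ± 0.07 or 4.83-fold (adjusted p 0.00131). Its probes were farther apart: the probe A_44_P520235 had 3.15 and 3.27, and A_44_P395771 had 1.49 and 1.18. Both probes were higher in lung, and the choice of probe moves the size of the Tie1 ratio more than the choice of array does.

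Flt1 and Flt4 were the least precise of the receptors. Flt1 had 2.09 in replicate 1 and 1.65 in replicate 2, a mean of 1.87 ± 0.31 (SD, n = 2) or 3.66-fold (limma adjusted p 0.00666). Flt4 had 1.98 and 1.37, a mean of 1.68 ± 0.44 or 3.19-fold (adjusted p 0.0149). Each rests on 1 probe, and replicate 1 was the higher array for both. The SD of Flt4 was larger than that of 95.2% of genes and the SD of Flt1 larger than that of 91.5%. Against a 2-fold change in limma's treat, Flt1 passed (adjusted p 0.0424) and Flt4 did not (adjusted p 0.126), with a 95% interval of the Flt4 mean from 0.89 to 2.46.

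By the mean of its probes Vegfa was the highest ligand, although with the lower middle probe standing for a gene it lay at 1.40, below Angpt2 at 2.58. That setting takes the lower of the 2 Vegfa probes but the middle of the 3 Angpt2 probes. The higher Vegfa probe lay above all 3 Angpt2 probes in both arrays. Vegfa had 2.22 in replicate 1 and 2.17 in replicate 2, a mean of 2.20 ± 0.03 (SD, n = 2) or 4.59-fold (limma adjusted p 0.00118). Its probe A_43_P15572 lay at 3.02 and 2.97 and A_44_P300751 at 1.43 and 1.37, so the arrays agreed within each probe and the probes disagreed on the size. Both gave a ratio of more than 2-fold in each array. Angpt2 had 2.11 and 1.86, a mean of 1.98 ± 0.18 or 3.95-fold (adjusted p 0.0028). That mean covers 3 probes, of which A_44_P792166 lay at 2.80 and 2.88 and A_43_P15980 at 2.65 and 2.51, while A_44_P419123 lay at 0.86 and 0.17 and did not pass on its own (limma over single probes, adjusted p 0.152). The other 2 probes lie close together, and the ratio of the whole gene depends on whether A_44_P419123 is counted.

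Vegfb and Vegfc were lower in lung by nearly the same amount. Vegfb, a ligand of Flt1, had -1.78 in replicate 1 and -1.75 in replicate 2, a mean of -1.76 ± 0.02 (SD, n = 2), which is 3.39-fold lower (limma adjusted p 0.00124). Its 2 probes agreed more closely than those of any other member with several, at -1.95 and -1.57. Vegfc, a ligand of Flt4 and Kdr, had -1.77 and -1.72, a mean of -1.75 ± 0.04 or 3.35-fold lower (adjusted p 0.00133). The genes nearest to Vegfb over the 2 arrays were Gpnmb, a transmembrane glycoprotein of macrophages and osteoblasts, at a distance of 0.01, Dzip1 at 0.01 and Scarf2 at 0.01. As many as 780 genes lay within 0.5 units, so nearness says little there.

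Angpt1 lay next to 0, with 0.03 in replicate 1 and 0.01 in replicate 2 (mean 0.02 ± 0.01; SD, n = 2). With an adjusted p of 0.556 it did not pass in limma, and the 95% interval of its mean ran from -0.09 to 0.13. That interval holds for the values as deposited. With each array's probe median subtracted, which raises every gene by 0.19, Angpt1 lay at 0.21 and passed as higher (adjusted p 0.035). The same subtraction left the calls of the other 9 genes in place, giving 8 of the 10 higher and 2 lower, against 38.5% and 38% of all genes. Over all genes the split of calls was then 6007 higher and 5931 lower, beside 5142 higher and 7765 lower for the values as deposited.

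The probes of 1 gene disagreed more than the arrays did. Among the 3767 genes with several probes, the median range of the probe means was 0.72. It was 2.33 for Angpt2, wider than in 91% of these genes, 1.88 for Tie1 (85.4%), 1.60 for Vegfa (80.5%), 1.05 for Tek (64.6%) and 0.38 for Vegfb (28.6%). Of the 7 receptor probes, 7 passed as higher. Of the 9 ligand probes, 4 passed as higher and 3 as lower, and 2 did not pass. Over single probes, 33.9% passed as higher and 49.3% as lower.

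**Figure D3:**
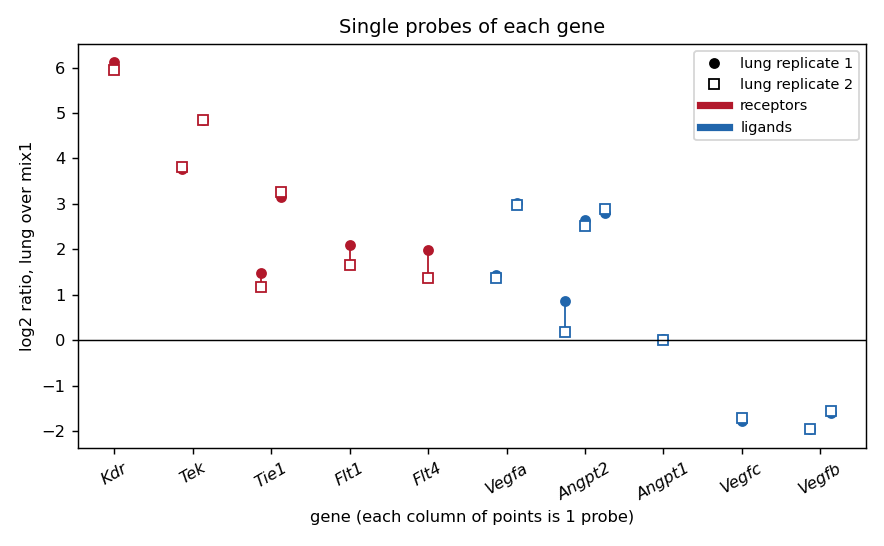
Each column of points is 1 probe, with replicate 1 as a filled circle and replicate 2 as an open square joined by a line, and the y axis is the log2 ratio of lung over mix1. Genes run along the x axis, receptors (red) left of ligands (blue). The probes of Tie1, Vegfa and Angpt2 lie apart by more than their arrays do, and no gene has probes that passed on opposite sides of 0.

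Ranked by the means of their probes, the genes ran Kdr, Tek, Tie1, Vegfa, Angpt2, Flt1, Flt4, Angpt1, Vegfc and Vegfb. Kdr and Tek stood clear of each other and of Tie1 in both arrays. Taken within each array, every gene lay above the next in this order in both arrays, but several gaps were small. Angpt2 exceeded Flt1 by 0.02 in replicate 1 and 0.20 in replicate 2, a mean of 0.11 ± 0.13 (SD, n = 2), the one gap smaller than its SD. Flt1 exceeded Flt4 by 0.11 and 0.29, a mean of 0.20 ± 0.13. Tie1 exceeded Vegfa by 0.10 and 0.05, Vegfa exceeded Angpt2 by 0.12 and 0.32, and Vegfc exceeded Vegfb by 0.01 and 0.03. Those last 3 gaps were narrower than the range between the probes of Tie1, Vegfa, Angpt2 and Vegfb, and their order depends on the probes.

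Setting each receptor beside a ligand that binds it, the receptor's log2 ratio was the higher in 6 of 7 pairs. These pairs share genes, and ratios were compared, not levels. Kdr exceeded Vegfa by 3.84 ± 0.08 (SD, n = 2) and Vegfc by 7.78 ± 0.15. Flt1 exceeded Vegfb by 3.63 ± 0.33, and Flt4 exceeded Vegfc by 3.42 ± 0.47. The exception was Flt1 with Vegfa, where the receptor minus the ligand was -0.13 in replicate 1 and -0.52 in replicate 2, a mean of -0.33 ± 0.27. This exception depends on the probes of Vegfa: with the lower middle probe Flt1 lay at 1.87 and Vegfa at 1.40, and the receptor was the higher in 7 of 7 pairs. Tek exceeded Angpt1 by 4.29 ± 0.03 and Angpt2 by 2.33 ± 0.19. The difference between the median receptor and the median ligand was 2.29 in replicate 1 and 2.21 in replicate 2. No test was made over the members, which were chosen with earlier results of these data known.

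Further ligands of the same families, chosen here after their values were seen, were not higher in lung. Vegfd, which also binds Flt4, had -3.87 in replicate 1 and -3.85 in replicate 2, and Angpt4, a further Tek ligand, had -3.16 and -2.93. Pgf, the placental growth factor that binds Flt1, had -0.09 and -0.04 and was not called in limma (adjusted p 0.174). The list of co-receptors, further ligands and modulators to which they belong had 4 of 18 measured genes higher (22.2%) and 10 lower (55.6%), with a median of -0.58, beside 32.9% higher, 49.7% lower and a median of -0.22 over all genes. At its upper end Ptprb, the phosphatase that acts on Tek, had a log2 ratio of 6.36 ± 0.08 (SD, n = 2) and VE-cadherin (Cdh5) 2.45 ± 0.57 (limma adjusted p 0.0121). Cdh5 did not pass against a 2-fold change in treat (adjusted p 0.0536). At its lower end the angiogenesis inhibitor thrombospondin 1 (Thbs1) had -5.94 ± 0.09 and Angptl2 -4.57 ± 0.01.

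Of 24 measured genes on a list drawn up for VEGF receptor signalling, 13 were higher (54.2%) and 10 lower (41.7%). Whether each of them acts downstream of these receptors was not tested. The median gene of that list lay at 0.50, against -0.22 over all genes, of which 32.9% were higher and 49.7% lower. The highest were Rasip1, needed in the mouse for blood vessels to form a lumen, at 4.14 ± 0.07 (SD, n = 2) and endothelial nitric oxide synthase (Nos3) at 3.45 ± 0.10. The lowest were the adaptor Grb14 at -4.11 ± 0.09 and the kinase Src at -1.55 ± 0.02. Of 18 genes of oxygen sensing and the hypoxia response, through which low oxygen is known to raise Vegfa, 5 were higher (27.8%) and 13 lower (72.2%; median -0.81). Epas1, the HIF subunit abundant in endothelium, had 4.14 ± 0.01, Ankrd37 0.65 ± 0.06, adrenomedullin (Adm) -3.62 ± 0.02 and the HIF inhibitor Hif1an -2.13 ± 0.05.

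Of 19 receptors of other vascular pathways, 10 were higher (52.6%) and 7 lower (36.8%; median 0.82). Of 19 ligands of those pathways, 7 were higher (36.8%) and 12 lower (63.2%; median -0.70). The share that was higher lies near the 32.9% of all genes, of which 49.7% were lower. The adrenomedullin receptor subunits Calcrl at 4.71 ± 0.11 (SD, n = 2) and Ramp2 at 4.12 ± 0.18 led the receptors, and Ramp3 at -2.52 ± 0.05 and the pericyte and fibroblast receptor Pdgfrb at -2.22 ± 0.01 were lowest. Apelin (Apln) at 3.93 ± 0.02 and the Notch ligand Jag2 at 2.85 ± 0.10 led the ligands, and Cxcl12 at -2.71 ± 0.03 and Fgf2 at -2.48 ± 0.16 were lowest. With the lower middle probe, which is the lower of 2 for each gene, Cxcl12 lay at -3.77 and Fgf2 at -4.14. The other probe of each lies above its mean, so the size of both ratios and their order depend on the probe. Of 22 endothelial transcription factors, 15 were higher and 6 lower (median 0.97). Erg had 5.46 ± 0.15 and Sox18 3.97 ± 0.04, while Foxc1 had -3.89 ± 0.03 and Foxc2 -1.57 ± 0.03 (-2.61 by its lower probe). No test compared these lists with each other or with all genes.

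Most markers of endothelium were higher in lung, as the receptors were. The marker lists, like the members, were chosen with earlier results of these data known, so their shares are a description and no independent support. Against 32.9% of all genes higher and 49.7% lower, 14 of 15 measured endothelial markers were higher and 1 was lower (median 4.07). Their ratios ran from Robo4 at -0.70 ± 0.02 (SD, n = 2) and Cd34 at 0.67 ± 0.12 to Clec14a at 6.23 ± 0.01 and Cyyr1 at 6.33 ± 0.12, with Clec14a at 5.28 by its lower probe. The ratio of Kdr lies near the top of that range, that of Tek near its middle, and those of Tie1, Flt1 and Flt4 below its median. All 8 measured markers of alveolar type 1 cells, one known source of Vegfa, were also higher (median 4.41), from Cav1 at 0.58 ± 0.0039 and Pdpn at 0.64 ± 0.03 to Clic5 at 5.92 ± 0.47 and Akap5 at 6.33 ± 0.12, with Clic5 at 5.28 by its lower probe. Ager, counted among these 8, was also used to set the direction of the ratio and is no finding for that reason. Mix1 was made from cultured bone marrow cells and ear fibroblasts. Of 14 markers of cultured fibroblasts and marrow stroma, 13 were lower and 1 higher (median -4.93). They ran from Prrx1 at -7.44 ± 0.03 and Tnc at -7.37 ± 0.21 to Pdgfra at -1.01 and Lepr at 1.20 ± 0.15, with Lepr at 0.55 by its lower probe. The part of these cell types in the ratios of the receptors and ligands was not tested.

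**Figure D4:**
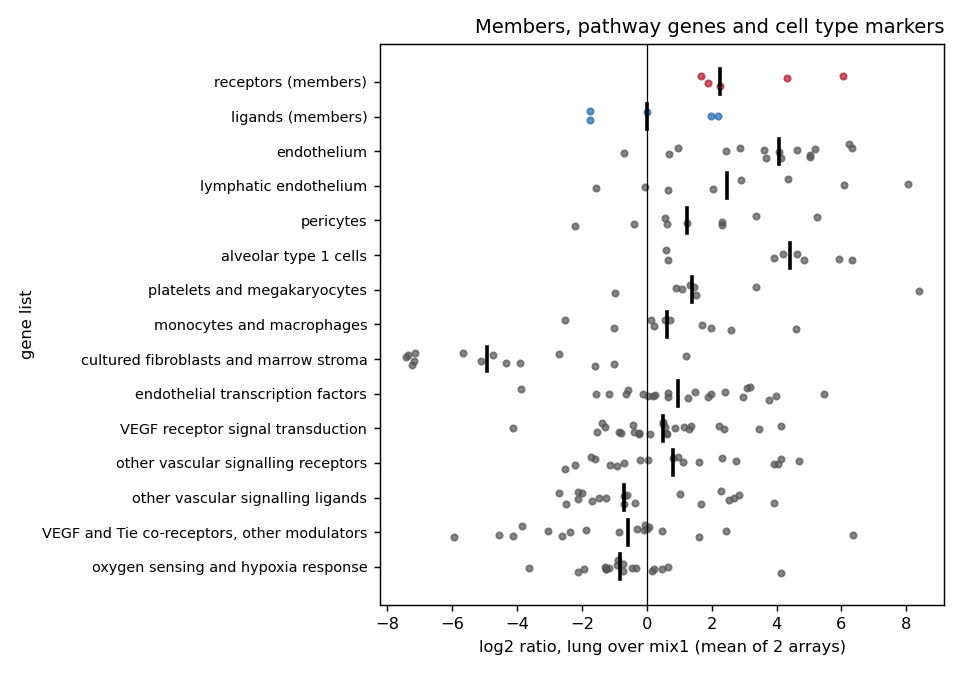
Each point is a gene, placed by its log2 ratio of lung over mix1 (x axis, mean of 2 arrays), with a row for the receptors, the ligands and each list of pathway genes or cell type markers. Black bars are medians. The receptors (median 2.27) lie to the right of 0, and the ligands (median 0.02) spread to both sides of it. The medians of the cell type lists, such as endothelium (4.07), alveolar type 1 cells (4.41) and lymphatic endothelium (2.47), also lie to the right. The exception is cultured fibroblasts and marrow stroma (-4.93).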

How the data were processed

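The deposited table holds 1 value per probe for each of 2 two-colour arrays. The authors' deposited values were taken as log2 ratios, since base-10 logarithms from -11.74 to 9.09 would exceed a 16-bit scanner. Agilent Feature Extraction is named in the submitters' processing notes. No version, background correction, dye normalization or centring is given in the sources used here, and the handling of background sets the size of ratios in which a channel is dim. The probe medians are -0.16 and -0.21.

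Symbols came from GEO's platform annotation (20417 probes with 1 symbol, none with several, 19595 unnamed) and were updated through RefSeq accessions (16987 probes), current symbols (3035) or synonyms (387) of GRCr8, with 8 kept. Probes of a gene were averaged. All genes were fitted with limma 3.58.1 in R 4.3.3 (intercept, eBayes, Benjamini-Hochberg, threshold 0.05), with 1 residual and 1.28 prior degrees of freedom. The fit was also run on simulated data with 50 genes changed at each size. It recovered 50% of changes of 1 log2 unit and 98% of changes of 6, and 4.73% of its calls were unchanged genes. Far fewer genes were changed there than passed in the real data, so the simulation says little about the calls made here. The ratio against 0 leaves out the spread of mix1. The members and lists were chosen with earlier results of these data known. Named are the members, the 2 highest and 2 lowest genes of each list that passed with 1 sign, and the 3 genes nearest to the highest receptor and the lowest ligand. Vegfd, Angpt4, Pgf, Prox1 and Trpc6 are named besides, chosen after their values were seen. The lists hold 216 different genes, 190 of them measured.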

Additional observations from a re-analysis of the deposited data

How the results depend on the processing

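The 10 genes kept their direction under every alternative other than turning the sign of the ratios, which would give -6.04 for Kdr, -4.31 for Tek, -2.27 for Tie1, -1.87 for Flt1, -1.68 for Flt4, -2.20 for Vegfa, -1.98 for Angpt2, 1.76 for Vegfb and 1.75 for Vegfc, and 7765 genes higher and 5142 lower. Flt4 no longer passed at an adjusted p under 0.01 or against a 2-fold change (treat), and Angpt1 passed only with array medians subtracted. The Angpt2 probe A_44_P419123 did not pass on its own (0.52). Between 6 and 8 of the 10 genes were higher and 2 lower under the alternatives with a test. With array medians subtracted, the median receptor lay at 2.46 and the median ligand at 0.21. With the lower middle probe standing for a gene, the median receptor lay at 1.87 and exceeded the median ligand by 1.85, because its lower probe then stands for Tie1. That setting also turned the difference between Flt1 and Vegfa to 0.47, and moved 8 of the 15 other named genes with several probes by over 1.5-fold. For a gene with 2 probes it takes the lower, so it can only lower the ratio of such a gene. Of the 53 list genes named, 2 (Cdh5 and Selp) lost their call at an adjusted p under 0.01 and 12, among them Cdh5, under treat. Over all genes, treat called 2143 higher and 1881 lower, and a fit over all 40012 probes called 13299 probes higher and 17078 lower. Leaving out an array leaves no residual degree of freedom and so gives values without a test: at least 2-fold differences were then found for 2743 to 2781 genes higher and 2624 to 2787 lower, and for 7 and 2 of the members. Scaling the arrays to 1 median absolute value and robust eBayes changed no call of a member. No paired analysis was possible because each array already sets lung against the same mix1 RNA and there is 1 group.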

Other observations

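Markers of other vascular and blood cells were also measured, and their ratios describe the RNA in which the receptors and ligands were compared. Of 8 markers of lymphatic endothelium, where Flt4 is best known, 6 were higher in lung and 1 lower, with a median log2 ratio of 2.47. That median was 2.92 in replicate 1 and 2.02 in replicate 2. Over all genes 32.9% were higher and 49.7% lower. Multimerin 1 (Mmrn1) had 8.05 ± 0.14 (SD, n = 2) and Lyve1 6.06 ± 0.10 (3.92 by its lower probe), Pdpn had 0.64 ± 0.03 and Foxc2 -1.57 ± 0.03 (-2.61 by its lower probe). Prox1, the transcription factor that defines lymphatic identity and a gene picked after its values were seen, had 0.20 in replicate 1 and -0.30 in replicate 2 and did not pass limma's test. Mmrn1 is also a platelet gene, and Lyve1 occurs on macrophages. Pdpn is also on the list of alveolar type 1 cells.

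Of 9 pericyte markers, cells known to produce Angpt1, 6 were higher and 2 lower. Their median of 1.23 differed between the arrays: it was 0.66 without replicate 2 and 1.92 without replicate 1. The gene with the widest gap between the arrays was Trpc6, which was not called. It had 0.53 in replicate 1 and 1.92 in replicate 2, where it was the median gene. Higd1b had 5.25 ± 0.13 (SD, n = 2) and Rgs5 3.35 ± 0.41, whereas Pdgfrb had -2.22 ± 0.01 and Notch3 -0.39 ± 0.01. Of 8 platelet and megakaryocyte markers, 7 were higher and 1 lower (median 1.39), with Clec1b at 8.38 ± 0.44, Treml1 at 3.36 ± 0.02 (1.73 by its lower probe), Selp at 0.91 ± 0.33 and Gp1ba at -0.99 ± 0.15. Of 10 markers of monocytes and macrophages, 7 were higher and 2 lower (median 0.63), with Lyz2 at 4.61 ± 0.03, Mrc1 at 2.59 ± 0.01, Adgre1 at -1.02 ± 0.01 and Cd14 at -2.51 ± 0.01. The same shares over all genes were 32.9% higher and 49.7% lower.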
